A study of Homo sapiens with 5 samples.

Results

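Peaks of RNA:DNA hybrid signal that were assigned to long non-coding RNA (lncRNA) genes are described here, from DRIP-seq of the established cell line PC-9, which came from a human lung adenocarcinoma. A peak was taken when the authors' annotation gave its gene the type lncRNA and placed the peak in a promoter, gene body or terminator rather than in intergenic sequence. The rule took 7771 of the 80323 peaks in the 4 deposited lists, and these lay in 3575 of the 12329 genes that held any peak. The study compared 2 DRIP libraries labelled exp, taken here as the FANCI knockdown that the design text names, with 2 control DRIP libraries, and all used the S9.6 antibody. FANCI is a Fanconi anaemia protein that works with FANCD2 in the repair of crosslinked DNA. How the knockdown was made, whether the exp cells were a pool or a clone, and whether the libraries of a group came from separate cultures is not stated in the labels, so p-values measure the spread between these libraries, which may be technical. A single input library, prepared without antibody, entered as read counts over the peaks. No RNA was analysed here, so neither the level of FANCI nor the lung identity of the cells was checked against markers.

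An R-loop forms when a nascent RNA pairs again with its template strand and leaves the other DNA strand unpaired. Transcripts that are rich in G pair tightly with a C-rich template, and GC skew, the excess of G over C on a strand divided by their sum, measures this. Many lncRNAs act where they are made, as antisense or divergent transcripts of coding genes or as long nuclear RNAs, and R-loops are known at several of them. DRIP-seq of sheared DNA does not keep the strand of the RNA, so a hybrid of a lncRNA and one of an overlapping coding transcript cannot be told apart by position.

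The promoters below were covered, in whole or in part, by lncRNA promoter peaks. They are RefSeq windows of GRCh38.p14 that run from 250 bases before to 50 bases after the start of transcription, printed 5′ to 3′ on the strand of the transcript, with runs of at least 4 G in capitals. Of the 3575 genes, 1001 (28.0%) matched a RefSeq symbol, 713 (19.9%) had a window, and 40 had a window under a promoter peak of the same gene. FAM230F, ARHGAP5-AS1 and KIRREL1-IT1 were the genes with such a peak in more than 1 library. LINC00659 and SIX3-AS1 are shown for opposite skews in control 1, and LINC02607 for the highest −log10 q among those of an exp library. These genes were chosen after their values were seen.
ARHGAP5-AS1: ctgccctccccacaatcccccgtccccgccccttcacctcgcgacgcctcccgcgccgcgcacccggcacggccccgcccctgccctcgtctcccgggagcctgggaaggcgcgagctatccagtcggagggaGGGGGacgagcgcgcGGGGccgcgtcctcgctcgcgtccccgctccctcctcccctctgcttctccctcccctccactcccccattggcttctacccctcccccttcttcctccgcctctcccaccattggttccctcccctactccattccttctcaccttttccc
KIRREL1-IT1: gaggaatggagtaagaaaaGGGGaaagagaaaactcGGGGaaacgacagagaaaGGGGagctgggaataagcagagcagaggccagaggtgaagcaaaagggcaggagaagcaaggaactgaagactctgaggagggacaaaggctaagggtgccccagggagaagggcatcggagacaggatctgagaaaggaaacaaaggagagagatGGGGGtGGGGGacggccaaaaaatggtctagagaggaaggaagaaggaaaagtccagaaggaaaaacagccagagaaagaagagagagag
FAM230F: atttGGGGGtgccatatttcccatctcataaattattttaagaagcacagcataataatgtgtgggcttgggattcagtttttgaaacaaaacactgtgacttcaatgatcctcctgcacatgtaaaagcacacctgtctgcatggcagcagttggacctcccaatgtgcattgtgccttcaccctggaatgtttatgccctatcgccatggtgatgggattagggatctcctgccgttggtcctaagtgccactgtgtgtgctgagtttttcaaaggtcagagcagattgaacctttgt
LINC02607: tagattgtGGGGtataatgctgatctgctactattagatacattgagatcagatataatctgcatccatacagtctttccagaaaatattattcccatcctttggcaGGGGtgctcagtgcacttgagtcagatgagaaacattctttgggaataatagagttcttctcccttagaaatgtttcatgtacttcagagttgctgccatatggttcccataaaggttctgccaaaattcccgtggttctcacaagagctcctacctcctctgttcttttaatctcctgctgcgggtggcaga
LINC00659: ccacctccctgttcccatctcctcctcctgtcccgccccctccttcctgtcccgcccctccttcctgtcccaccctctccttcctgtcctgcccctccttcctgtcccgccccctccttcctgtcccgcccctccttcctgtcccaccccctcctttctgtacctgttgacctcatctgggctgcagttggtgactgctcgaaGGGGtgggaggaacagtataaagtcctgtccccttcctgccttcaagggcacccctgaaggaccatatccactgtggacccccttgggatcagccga
SIX3-AS1: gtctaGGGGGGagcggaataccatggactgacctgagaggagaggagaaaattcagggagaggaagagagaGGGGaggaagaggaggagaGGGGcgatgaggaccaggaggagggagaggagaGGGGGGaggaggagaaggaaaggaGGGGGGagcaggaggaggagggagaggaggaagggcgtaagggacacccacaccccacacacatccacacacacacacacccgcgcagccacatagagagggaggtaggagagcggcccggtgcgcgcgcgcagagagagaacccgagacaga

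KIRREL1-IT1, an intronic transcript of the adhesion gene KIRREL1, has 5 runs of G in its window, at chr1:158025300-158025599 on the plus strand, and a skew of 0.55. Its promoter peaks in control 1 and control 2 covered 300 and 206 of these bases and held 46 and 26 DRIP reads over 6 and 3 input reads. ARHGAP5-AS1, transcribed opposite ARHGAP5, shows the reverse composition. Its window at chr14:32076650-32076949 on the minus strand has a skew of -0.44 with 13 runs of at least 4 C. The ARHGAP5-AS1 peaks of control 1 and control 2 lay mostly downstream of the window and reached its last 43 and 47 bases, with 40 and 21 DRIP reads over 4 input reads each. Neither gene had a promoter peak in an exp library.

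FAM230F lacked both features: its printed window at chr22:18892922-18893221 on the minus strand has 1 run of G and a skew of 0.04. Its other window, at chr22:18894382-18894681, has 0 runs of G and a skew of 0.02. All 4 libraries covered both windows whole. LINC02607 had its window at chr1:95509866-95510165 on the plus strand with a skew of -0.03, and the exp 2 peak, with 25 DRIP and 3 input reads, covered 90 of its bases. SIX3-AS1, beside the developmental regulator SIX3, had a skew of 0.43 at chr2:44941829-44942128 on the minus strand, and LINC00659 one of -0.44 at chr20:62776807-62777106 on the minus strand. Both G-rich and C-rich transcripts were therefore under control 1 peaks, of 32 DRIP reads at SIX3-AS1 and 55 at LINC00659. The letters GGGG were in 72.1% of the 43 lncRNA windows under a promoter peak, in 64.8% of the 12917 RefSeq lncRNA windows and in 75.1% of all 35116 windows. On the other strand, read as CCCC, the shares were 67.4%, 64.7% and 73.6%. A match is a description of these letters and not a site.

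The first question was whether lncRNA genes held fewer peaks in the exp libraries. Exp 1 and exp 2 held 1643 and 1220 lncRNA peaks, against 2584 and 2324 in control 1 and control 2. Both exp libraries lay below both controls, and the groups did not overlap. Means were 1431.5 ± 299 in exp and 2454 ± 184 in control (SD, n = 2 each), a ratio of 0.583, and protein-coding peaks gave 0.540. Genes with a lncRNA peak numbered 1306 and 1017 in the exp libraries, against 1891 and 1764 in the controls. The bases under these peaks came to 1062 and 810 kb in exp, against 1588 and 1440 kb in control, a ratio of 0.618. For each of these measures p was 0.333 (exact permutation, two-sided), the smallest that 2 libraries against 2 allow. Peak numbers also depend on how many peaks were called in a library, and all peaks numbered 16785 and 14354 in exp, against 25281 and 23903 in control. With all lists at equal length, the lncRNA peak ratio was 0.854. Whether the exp cells held fewer hybrids was not tested by these counts. In bulk libraries, fewer cells with a hybrid and fewer hybrids per cell cannot be told apart.

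As a share of all genic peaks, lncRNA peaks took 22.8% (95% Wilson interval 21.9 to 23.8) in exp 1 and 22.2% (21.1 to 23.3) in exp 2. The share was 22.3% (21.6 to 23.1) in control 1 and 20.1% (19.4 to 20.9) in control 2. The groups overlapped, and the difference of 1.30 percentage points had an exact two-sided permutation p = 0.667. The lncRNA peaks were thus fewer in exp roughly in step with all genic peaks. Intervals here cover counting error only, take peaks as independent, and hold neither the spread between libraries nor the duplication of molecules by PCR.

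Single lncRNA peaks had medians close to those of coding peaks in every library. The median lncRNA peak was 443 and 430 bp wide in exp and 420 and 466 bp in control, with 31 and 27 DRIP reads in exp and 34 and 29 in control. The authors' median fold enrichment over the local background was 3.72 and 3.82 in exp and 4.03 and 3.79 in control. Coding peaks had medians of 3.72, 3.82, 4.02 and 3.81 in the same order of libraries. Depth relative to control 1, solved from the peak caller's values, was 1.01 and 0.865 in exp and 0.919 in control 2, and the median lncRNA summit held 9 or 10 reads, which limits what a single peak can show. A lncRNA gene with a peak mostly had 1: this was so for 82.6% and 86.3% of them in exp and 76.6% and 80.3% in control, against 71.3% and 74.3% of coding genes in exp and 63.9% and 61.2% in control.

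Promoter peaks showed the lowest ratio of the 3 classes. A peak can carry several classes, and promoter and terminator peaks are counted here wherever the annotation names the class. Promoter peaks of lncRNA genes numbered 269 and 214 in exp, against 588 and 454 in control, a ratio of 0.464. Terminator peaks numbered 275 and 224 in exp, against 473 and 458 in control, a ratio of 0.536. Peaks in the gene body alone numbered 1140 and 822 in exp, against 1622 and 1500 in control, a ratio of 0.628. In all 3 classes both exp libraries lay below both controls, with an exact two-sided permutation p = 0.333 each, and the differences between the class ratios were not tested. Coding genes gave ratios of 0.358 for promoters, 0.465 for terminators and 0.569 for gene bodies alone.

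**Figure D1:**
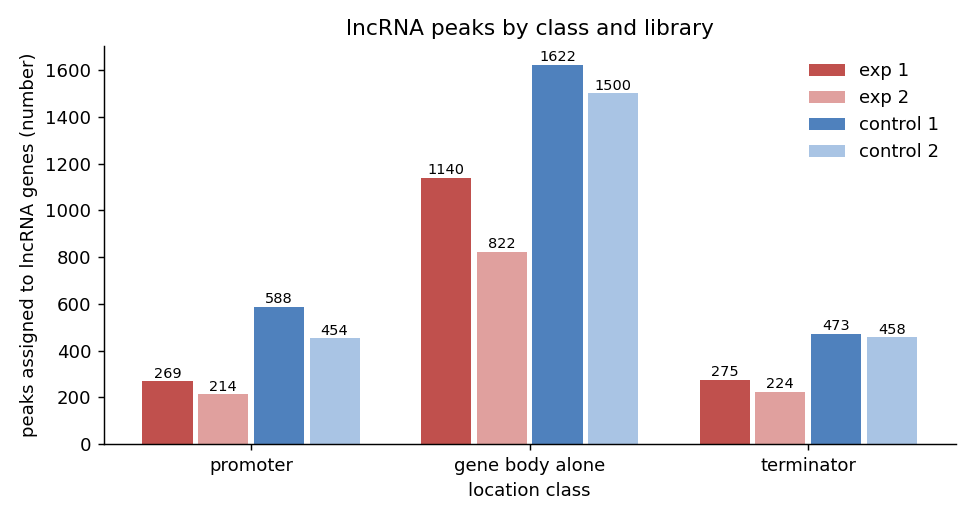
Number of peaks assigned to lncRNA genes (vertical axis) by location class (horizontal axis) in exp 1, exp 2, control 1 and control 2, 1 bar per library, with promoter and terminator counted wherever the annotation names them. Promoter bars stand at 269 and 214 in exp, against 588 and 454 in control.

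Within lncRNA peaks, the promoter class took 16.4% (95% Wilson interval 14.7 to 18.2) in exp 1 and 17.5% (15.5 to 19.8) in exp 2. It took 22.8% (21.2 to 24.4) in control 1 and 19.5% (18.0 to 21.2) in control 2. Both exp shares lay below both control shares, with means of 17.0 ± 0.826% in exp and 21.1 ± 2.28% in control (SD, n = 2 each) and an exact two-sided permutation p = 0.333. When −log10 q had to reach 5, the difference was -0.93 instead of -4.19 percentage points, with means of 24.0% in exp and 24.9% in control and groups that overlapped (exact permutation p = 1). The terminator class took 16.7% and 18.4% in exp and 18.3% and 19.7% in control, and these groups overlapped (exact two-sided permutation p = 0.667).

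In each library a larger part of the lncRNA peaks than of the coding peaks lay in promoters and terminators. The promoter share of lncRNA peaks exceeded that of coding peaks by 8.99 and 9.62 percentage points in exp and by 9.38 and 9.90 points in control. The mean excess was 9.47 ± 0.386 points (SD, n = 4 libraries). For terminators the excess was 10.3 and 10.6 points in exp and 9.44 and 12.3 points in control, with a mean of 10.7 ± 1.22 points (SD, n = 4 libraries). All 4 libraries had the same sign for both classes, and an exact sign-flip permutation (two-sided) gave each p = 0.125, the smallest that 4 libraries allow. The length of the genes was not compared, because fewer than 80% of the lncRNA genes matched RefSeq.

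**Figure D2:**
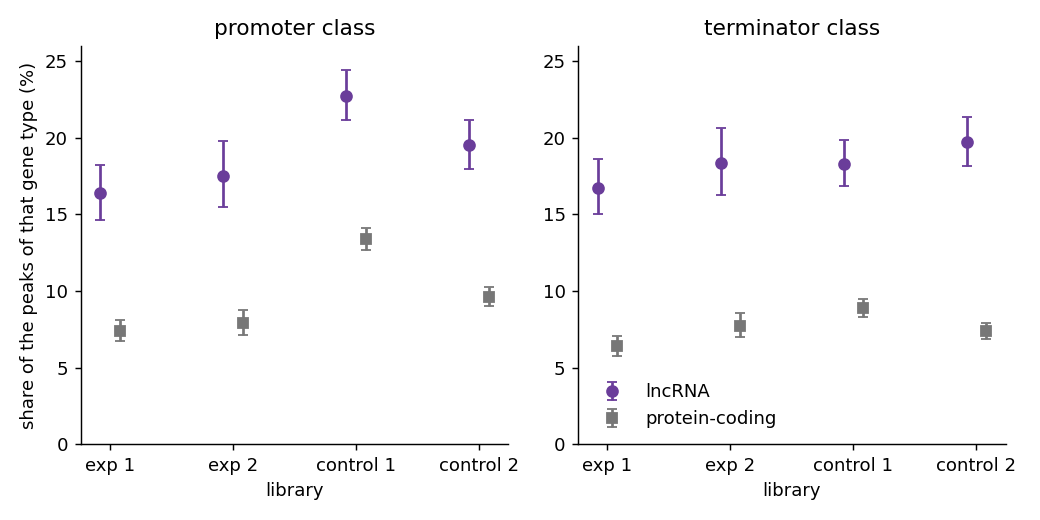
Share (%, vertical axis) of lncRNA peaks (circles) and of protein-coding peaks (squares) in the promoter class (left panel) and terminator class (right panel) in each library, with 95% Wilson intervals as bars. The lncRNA points lie above the coding points in all 4 libraries, and the promoter shares of lncRNA peaks are 16.4% and 17.5% in exp, against 22.8% and 19.5% in control.

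The annotation does not give the bounds of its classes, so they were set against RefSeq starts where a gene had 1 window. Summits of 233 promoter peaks, in 173 genes, had a median distance of 75 bases downstream of the start, and 81.1% lay within 3 kb of it. The median distance was 20090 bases for 1030 gene-body peaks and 6838 bases for 227 terminator peaks. Promoter summits lay upstream of the start for 26.3% and 50.0% in exp and 50.5% and 53.1% in control, with 38 and 26 such peaks in exp and 105 and 64 in control.

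Coding genes overlapped many of these peaks. Of lncRNA promoter peaks, 29.0% and 30.8% in exp and 32.7% and 33.7% in control lay inside a RefSeq coding gene. Those on the promoter window of a coding gene numbered 4 and 4 in exp, against 27 and 18 in control. Away from such windows there were 265 and 210 in exp, against 561 and 436 in control, so the lower number in exp was also seen there. The ratios were 0.178 on and 0.476 off coding windows, each with an exact two-sided permutation p = 0.333, and their difference was not tested.

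The most strongly called lncRNA promoters lay in the ribosomal RNA repeats of chromosome 21. FP671120.7 (ENSG00000280800), which overlaps an annotated copy of the 45S ribosomal RNA gene, had its main promoter peak at chr21:8209528-8211512 in exp 1. The 4 libraries held 1684 and 1381 DRIP reads there in exp, against 1920 and 1871 in control, over 405 and 403 input reads in exp and 417 in each control. FP236383.4 (ENSG00000280614), at another copy, held 1694 and 1387 DRIP reads in exp, against 1832 and 1906 in control, with fold enrichments of 5.70 and 5.99 in exp and 6.51 and 6.49 in control. The exp counts were below the control counts at both copies. All input counts come from the single input library, so they differ between the lists only through the peak bounds. At a further copy, FP236383.5, the groups overlapped, with 1750 and 1301 DRIP reads in exp and 1721 and 1907 in control. Scaled for width and library, the groups overlapped at FP671120.7 too, with 1751 and 1633 in exp and 1514 and 1930 in control (log2 fold change -0.02). So they did at FP236383.4, with 1698 and 1605 in exp and 1539 and 1955 in control (log2 fold change -0.08). Reads from near-identical repeat copies can be placed on any of them, so values at a single copy are uncertain.

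Across chromosomes, 32 lncRNA genes had a promoter peak in all 4 libraries, 4 of them on chromosome 21. Examples away from that chromosome were picked after their values were seen. LINC01839 (ENSG00000227509) had a promoter peak at chr3:184502710-184503123 in exp 1, and its peaks held 44 and 76 DRIP reads in exp, against 79 and 65 in control. The exp 2 peak was wider than the others, 1011 bp with 22 input reads, against 414 bp with 9 in exp 1, 503 bp with 11 in control 1 and 470 bp with 9 in control 2. Its transcript strand was G-rich in each library, with skews of 0.57 and 0.32 in exp and 0.57 and 0.57 in control.

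AL118508.1 (ENSG00000230387), at chr20:23188414-23189285 in exp 1, was more G-rich still, with skews of 0.74 and 0.82 in exp and 0.80 and 0.73 in control. Its peaks held 66 and 57 DRIP reads in exp, against 77 and 64 in control, over 11 and 10 input reads in exp and 10 and 12 in control. AC011228.2 (ENSG00000286404), on chromosome 7, had a C-rich transcript strand, with skews of -0.67 and -0.77 in exp and -0.28 and -0.33 in control. These skews refer to unlike stretches, since its peaks were 623 and 482 bp wide in exp, against 995 and 1081 bp in control. Promoters called in every library thus ran in either direction of skew. AL662797.2 (ENSG00000272540), which overlaps the beta-tubulin gene TUBB, stood near balance, with skews of 0.03 and 0.08 in exp and 0.07 in each control, and held 70 and 66 DRIP reads in exp, against 59 and 45 in control.

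Over all lncRNA promoter peaks the median GC skew of the transcript strand lay close to 0. It was -0.00637 and 0.0233 in exp, against 0.0147 and -0.00530 in control. The groups overlapped in this median. The difference from coding promoter peaks was 0.0140 and 0.00716 in exp and -0.0110 and -0.0216 in control. Its sign thus differed between the groups, which did not overlap in it, and this split was not tested. The mean of this difference, which pools the opposite signs, was -0.00285 ± 0.0164 (SD, n = 4 libraries), with an exact two-sided sign-flip permutation p = 0.75. At −log10 q of at least 2 the mean was -0.0117 (exact permutation p = 0.25), and at 5 it was -0.0309 (exact permutation p = 0.125, the smallest possible). G-rich transcripts, with a skew of at least 0.2, made up 21.6% and 29.4% of lncRNA promoter peaks in exp and 30.8% and 20.7% in control. Their C-rich counterparts made up 20.8% and 22.4% in exp and 28.9% and 18.5% in control. The groups also overlapped in the median absolute skew, which was 0.161 and 0.217 in exp and 0.271 and 0.141 in control. The strand of the deposited skew was read as that of the reference genome: over short promoter peaks on a RefSeq window it correlated with the skew of that window at r = 0.914 for 20 windows of plus-strand genes and r = 0.957 for 31 windows of minus-strand genes, as a description over windows that can share a gene.

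**Figure D3:**
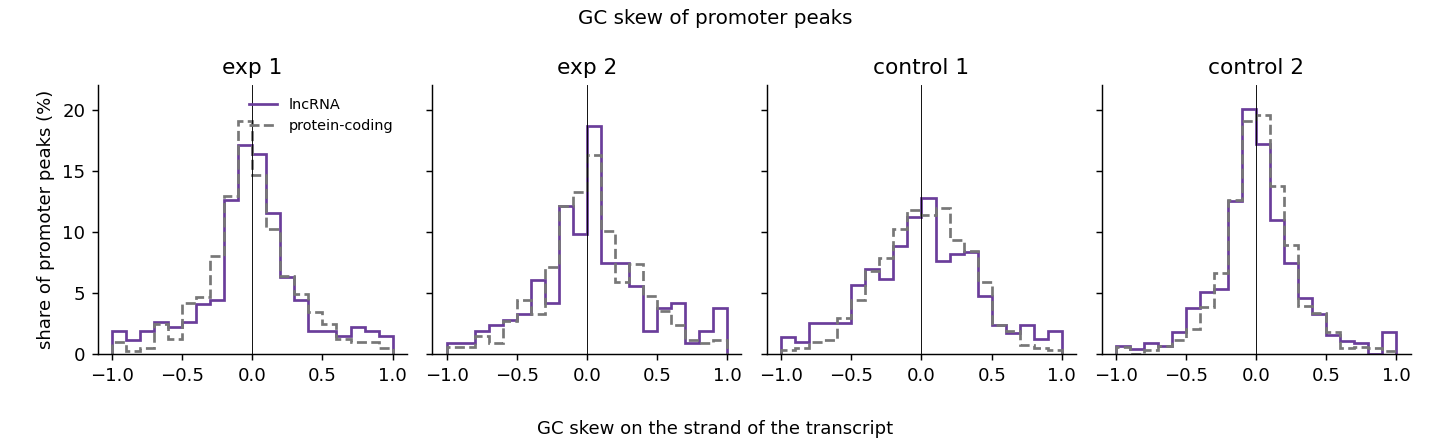
Share of promoter peaks (%, vertical axis) by GC skew on the transcript strand (horizontal axis, no unit) for lncRNA and protein-coding genes, 1 panel per library with exp left of control. All panels centre near 0, with lncRNA medians of -0.00637 and 0.0233 in exp, against 0.0147 and -0.00530 in control, and control 1 is the widest, with a median absolute skew of 0.271.

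Gene-body peaks made up most of the lncRNA set, and 192 genes had one in all 4 libraries, 3 of them on chromosome 21. F11-AS1 (ENSG00000251165), transcribed opposite the locus of coagulation factor F11, held a wide peak in every library, at chr4:186432644-186436344 in exp 1, and a further shorter peak in exp 1 and both controls. The wide peak's fold enrichment was 16.0 and 20.8 in exp, against 23.1 and 12.8 in control, with 168 and 181 DRIP reads in exp, against 296 and 167 in control. Input reads were 51 and 52 in exp and 62 and 53 in control, and the groups overlapped in DRIP reads. The transcript strand there was G-rich to nearly the same degree in every library, with skews of 0.75 and 0.75 in exp and 0.76 and 0.75 in control.

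Other gene-body examples were chosen after their values were seen. ITFG2-AS1 (ENSG00000256150), opposite ITFG2 at chr12:2719819-2721127 in exp 1, held 112 and 106 DRIP reads in exp, against 171 and 111 in control, over 18 and 18 input reads in exp and 19 and 18 in control. Its skews were 0.57 and 0.57 in exp and 0.52 and 0.56 in control. AC244230.2 (ENSG00000285402), on chromosome 10, showed the opposite sign, with skews of -0.75 and -0.81 in exp and -0.77 and -0.78 in control. It held 187 and 230 DRIP reads in exp, against 333 and 157 in control. AL672310.1 (ENSG00000230423), at chr6:170656401-170661655 in exp 1, had fold enrichments of 9.10 and 13.2 in exp, against 22.4 and 8.60 in control. Control 1 held the most DRIP reads at all 3 genes, and control 2 lay close to the exp libraries at ITFG2-AS1 and AL672310.1. At AC244230.2 exp 2 had the highest fold enrichment, with 4.65 and 7.46 in exp and 5.98 and 5.47 in control. Scaled for width and library, the AC244230.2 counts were 217 and 233 in exp, against 227 and 196 in control.

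Terminator peaks were called in all 4 libraries for 40 lncRNA genes, 6 of them on chromosome 21. Away from that chromosome, examples were again chosen after their values were seen. LINC02558 (ENSG00000230866), at chr22:32039482-32039912 in exp 1, held 70 and 63 DRIP reads in exp, against 62 and 68 in control, over 10 and 11 input reads in exp and 8 and 10 in control. These counts overlapped. BX640514.1 (ENSG00000264490), on chromosome 20, held 86 and 79 DRIP reads in exp, against 117 and 86 in control, on a C-rich transcript strand with skews of -0.53 and -0.48 in exp and -0.53 and -0.41 in control. AC008875.3 (ENSG00000287263), on chromosome 5, held 83 and 70 DRIP reads in exp, against 94 and 126 in control. Its peaks were narrower in exp, at 827 and 692 bp, against 964 and 1393 bp in control, and scaled for width and library the counts were 93.6 and 106.5 in exp, against 75.2 and 91.8 in control, so the order of the groups turned with the scaling (log2 fold change 0.25, SE 0.23, edgeR's quasi-likelihood test, adjusted p = 0.954).

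The lncRNA genes with the most covered bases included known tandem repeats and ribosomal RNA copies. The 10 most covered genes took 16.7% and 21.1% of lncRNA covered bases in exp, against 13.7% and 12.0% in control. They also took 33.8% and 39.4% of the DRIP reads over lncRNA peaks in exp, against 26.7% and 28.2% in control. In both measures these genes weighed more in the exp libraries. Peaks over 5000 bp numbered 11 and 9 in exp and 14 and 10 in control.

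AC092296.2 (ENSG00000267053) held 1 promoter peak that spanned nearly the same ground in every library, chr19:36268924-36308537 in exp 1. Its width was 39.6 and 39.3 kb in exp, against 39.7 and 39.3 kb in control. The single input library held 1818 and 1816 reads over the exp spans and 1820 and 1817 over the control spans. These counts are close because the spans are. DRIP reads numbered 2180 and 1886 in exp, against 3246 and 2363 in control, so DRIP reads per input read were 1.20 and 1.04 in exp and 1.78 and 1.30 in control. These ratios carry no correction for library depth. Scaled for width and library, the counts were 2165 and 2132 in exp, against 2657 and 2572 in control. The log2 fold change was -0.28 (SE 0.19, edgeR's quasi-likelihood test, adjusted p = 0.831). The input density of 45.9 and 46.2 reads per kb in exp and 45.8 and 46.2 in control stood above the median lncRNA peak, which held 13.7 to 15.1 input reads per kb over the 4 libraries.

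DANT1 (ENSG00000229335) is transcribed at DXZ4, a tandem repeat of the X chromosome known for the folding of the inactive X. Its terminator peak covered 43.9 and 43.3 kb in exp, against 44.6 kb in control 1, while control 2 listed a peak of 42.4 kb at the same place as intergenic. DRIP reads over that place were 1336 and 1070 in exp, against 1855 and 1376 in control. Per input read, without correction for library depth, this made 1.61 and 1.31 in exp and 2.22 and 1.73 in control. In this ratio both exp libraries lay below both controls. The change of class in control 2 shows that a gene can be absent from a library's lncRNA peaks while its peak is there.

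DBET (ENSG00000281591) is made from the D4Z4 repeat of chromosome 4, the repeat whose loss of copies is known in facioscapulohumeral dystrophy. Its peaks covered 23.5 and 3.69 kb in exp, against 25.8 and 25.7 kb in control. When intergenic peaks at the same place were added, exp 2 reached 16.4 kb. With them, DRIP reads per input read were 1.03 and 0.813 in exp and 1.52 and 0.919 in control, and the groups overlapped. AC016590.4 (ENSG00000286449), on chromosome 19, was split likewise: 0 and 14.6 kb were assigned in exp, against 32.2 and 31.9 kb in control, but 31.1 and 29.3 kb of peaks lay there in exp under any assignment. DRIP reads per input read over AC016590.4 were then 1.15 and 1.05 in exp, against 1.73 and 1.24 in control.

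FP236383.3 (ENSG00000280441) and FP671120.5 (ENSG00000278996) lie over copies of the ribosomal RNA genes on chromosome 21. FP671120.5 held 15273 and 13007 DRIP reads in exp, against 17547 and 15266 in control, the most of any gene named here. Its covered length was 19.5 and 20.2 kb in exp, against 21.7 and 21.9 kb in control, and DRIP reads per input read were 2.79 and 2.26 in exp and 2.93 and 2.55 in control. FP236383.3 gave 2.75 and 2.25 in exp, against 3.01 and 2.58 in control, so at both genes exp 1 lay above control 2 and the groups overlapped.

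TTN-AS1 (ENSG00000237298), opposite the titin gene TTN, covered 5.90 and 6.26 kb in exp, against 6.96 and 6.93 kb in control, with 94 and 95 DRIP reads in exp and 122 and 109 in control. Input reads there were 114 and 126 in exp and 136 and 137 in control. DRIP reads at TTN-AS1 were thus fewer than input reads in every library, without correction for library depth. AC139256.3 (ENSG00000270580), which overlaps PDXDC1 on chromosome 16, covered 8.78 and 7.69 kb in exp and 8.35 and 7.52 kb in control, and its exp 1 fold enrichment of 21.1 was the highest of any lncRNA peak in that library. LINC01606, on chromosome 8, covered 5.43 and 6.60 kb in exp, against 8.58 and 6.38 kb in control. AC118758.3, on chromosome 7, covered 10.1 and 8.51 kb in exp, against 9.42 and 11.8 kb in control, in 3 regions. It was listed as 1 and 6 peaks in exp and 6 and 3 in control.

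**Figure D4:**
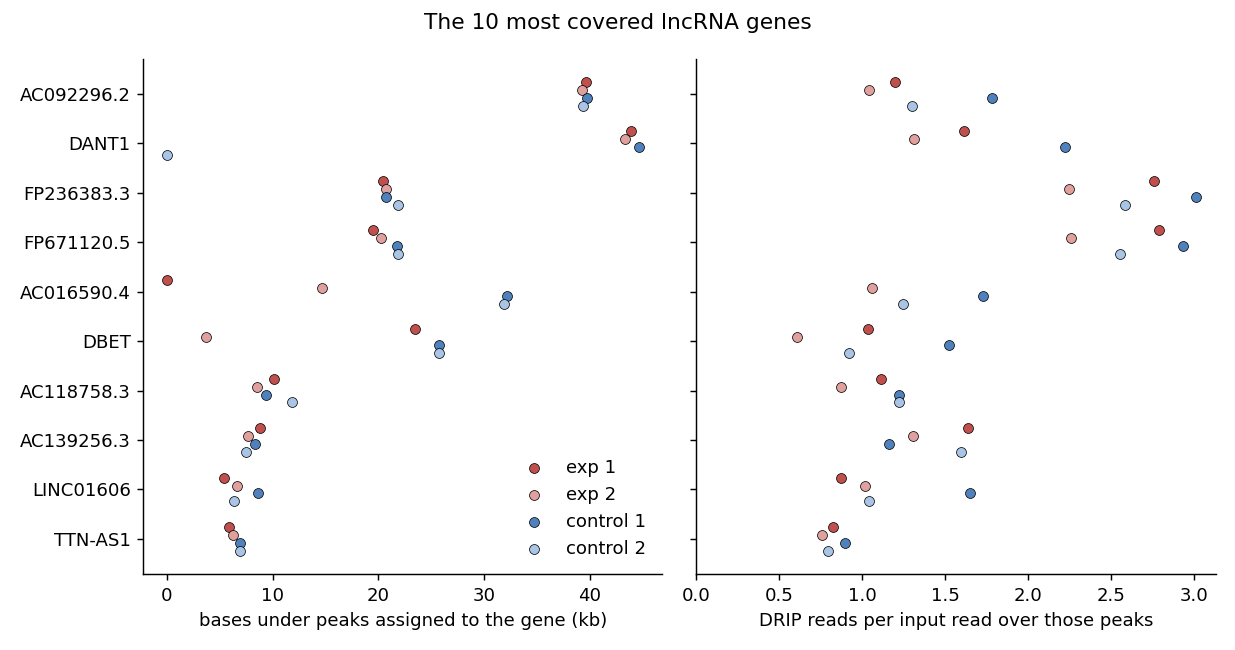
Covered kb (left panel) and DRIP reads per input read (right panel) of the 10 lncRNA genes with the most covered bases, down the page, with 1 point per library. AC092296.2 covers 39.6 and 39.3 kb in exp, against 39.7 and 39.3 kb in control. Its DRIP reads per input read, not corrected for library depth, are 1.20 and 1.04 in exp, against 1.78 and 1.30 in control.

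Genes with the most peaks, also picked after their values were seen, differed in how often their regions recurred. The ribosomal copies FP671120.5 and FP236383.3 held 30 and 26 peaks over the 4 libraries within about 40 kb each, and 5 of their 8 and 5 of their 7 regions were called in all 4 libraries. AL592295.3 held 29 peaks, with 3 of 12 regions in all 4 libraries, and at the longer loci below fewer recurred. AC008050.1 (ENSG00000259124), on chromosome 14, had 5 and 3 peaks in exp, against 14 and 12 in control. These fell into 24 regions over 199.6 kb, of which 19 were called in 1 library and 2 in all 4. PVT1, the lncRNA beside MYC that is amplified in many cancers, had 6 and 7 peaks in exp, against 3 and 10 in control, in 19 regions of which 0 were shared by all 4 libraries. Counts at PVT1 overlapped between the groups, while those at AC008050.1 did not. LINC01205 had 8 and 6 peaks in exp, against 4 and 6 in control, and LINC00882 had 4 and 3 in exp, against 8 and 8 in control.

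By the form of their names, 2502 of the 3575 genes (70.0%) carry a clone name, 563 (15.7%) are LINC genes and 322 (9.01%) are antisense genes. Antisense genes held 142 and 108 peaks in exp, against 254 and 239 in control, a ratio of 0.507. Clone-named genes gave 0.596 and LINC genes 0.593, and the differences between these ratios were not tested. Of the antisense peaks, 31.7% and 30.6% in exp and 43.3% and 39.3% in control lay inside a RefSeq coding gene. Over all lncRNA peaks that share was 18.6% and 19.3% in exp, against 23.1% and 22.2% in control. Peaks inside coding genes numbered 306 and 235 in exp, against 597 and 517 in control, and those outside 1337 and 985 in exp, against 1987 and 1807 in control. Both kinds were fewer in both exp libraries, with ratios of 0.486 inside and 0.612 outside (exact two-sided permutation p = 0.333 each).

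Most lncRNA genes were called in a single library. This held for 2128 of 3575 genes (59.5%), against 45.1% of coding genes. Genes with a peak in all 4 libraries numbered 280 (7.83%), against 10.9% of all genes with a peak. Regions recurred less still: of 5995 merged lncRNA regions, 4836 (80.7%) came from 1 library and 178 (2.97%) from all 4. Coding regions did not recur more, with 82.0% from 1 library and 2.00% from all 4. Over all merged regions the shares were 77.6% and 3.17%. A gene in both controls and neither exp library is called control-only here, and 275 lncRNA genes (7.69%) were so, against 8.52% of all 12329 genes with a peak. Exp-only genes, with the groups exchanged, numbered 56 (1.57%), against 1.37% of all genes. Both shares lay near those of all genes and are no result about lncRNA genes.

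In the promoter class, 64 of 1090 lncRNA genes (5.87%) were control-only and 9 (0.826%) exp-only, against 7.09% and 0.709% of all genes with a promoter peak. Both control peaks shared a region in 124 of the 275 control-only genes (45.1%), and 3 genes had an exp peak at the same place under another assignment. Of the 56 exp-only genes, 27 (48.2%) had both peaks in 1 region. These counts moved with the stringency of calling: at −log10 q of at least 5, 30 genes were control-only and 7 exp-only, and with all lists at equal length 132 and 96. Leaving out a library loosens the rule, so the counts can then only rise. Control-only genes numbered 431 without exp 1 and 375 without exp 2, against 926 without control 1 and 1077 without control 2. Exp-only genes numbered 322 without exp 1, 465 without exp 2, 123 without control 1 and 129 without control 2.

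The strongest control-only genes held 32 to 171 DRIP reads in their shared peaks, where the median lncRNA peak held 34 in control 1 and 29 in control 2. AC010319.5 (ENSG00000269736) held 36 DRIP reads over 2 input reads in control 1, at chr19:17450700-17450999, and 52 over 5 in control 2. CU104787.1 (ENSG00000279973) held 171 over 22 in control 1, at chr22:11064454-11065788, and 96 over 18 in control 2, on a C-rich transcript strand with skews of -0.74 and -0.79. SEPTIN7-DT, divergent from the septin gene SEPTIN7, held 40 over 2 in control 1, at chr7:35756466-35756762, and 38 over 4 in control 2. None of these genes had a lncRNA peak in an exp library; DRIP reads were counted over called peaks alone, so the exp level at these places is not known here. APCDD1L-DT, divergent from the WNT inhibitor gene APCDD1L, held 74 over 11 in control 1 and 49 over 8 in control 2 at its promoter. AC137494.1, on chromosome 16, had a shared gene-body peak of 86 and 54 DRIP reads in control 1 and control 2 with skews of -0.85 and -0.84. LINC01410, AC010320.4 within ZNF480 and AC004771.3 within SPAG7 completed the 8 genes, with 32 to 123 DRIP reads per peak.

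The 8 exp-only genes named by the same rule held 20 to 101 DRIP reads per peak. PRR7-AS1 (ENSG00000246334), opposite PRR7, held 37 DRIP reads over 5 input reads in exp 1, at chr5:177445742-177446108, and 32 over 5 in exp 2. AC016821.1 (ENSG00000287306), within the tetraspanin gene TSPAN15, held 47 over 8 in exp 1 and 40 over 8 in exp 2. AC131944.1 (ENSG00000286618), within the osteopontin gene SPP1, held 54 over 9 in exp 1 and 101 over 20 in exp 2. The peaks of AC005224.2, within the heparan sulfate enzyme gene HS3ST3B1, held 42 and 26 DRIP reads, and SCP2D1-AS1 held 41 and 30. LINC01484, AC008663.1 and AC046168.1 had 20 to 33 DRIP reads per peak.

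Lists of well-known lncRNAs were also counted. The share of all annotated lncRNA genes with a peak was not computed, so these counts have no background. The lists share some genes, such as PVT1 and MALAT1. Of 28 nuclear and chromatin lncRNAs, 5 had a peak in any library, namely PVT1, MALAT1, FIRRE, MEG3 and GAS5, with 3 and 1 genes in exp, against 4 and 3 in control. MALAT1, an abundant RNA of nuclear speckles, was control-only, with 145 DRIP reads over 24 input reads at chr11:65499640-65500789 in control 1. In control 2 its peak was a terminator peak of 55 reads, and a peak of 65 reads near its start was assigned to AP000769.2. NEAT1, the RNA that builds paraspeckles, had no peak. A list of 11 lncRNAs chosen for reports of R-loops, most of them antisense, also held MALAT1; its only other member with a peak was RASSF1-AS1, and VIM-AS1 had none. RASSF1-AS1, opposite the tumour suppressor RASSF1, held 22 DRIP reads in exp 1 and 21 in control 2, with a peak in neither exp 2 nor control 1.

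Among lncRNAs that host small RNAs, taken mostly by the pattern of their names and so without a fixed number of members, 21 had a peak, with 7 and 7 genes in exp, against 14 and 11 in control. All lncRNA genes with a peak were likewise fewer in exp, 1306 and 1017, against 1891 and 1764 in control. MIR4435-2HG was control-only, and MIR3681HG and SNHG29 were called in all 4 libraries. SNHG29, a host of small nucleolar RNAs, had a shared gene-body peak at chr17:16456052-16456637 in exp 1 with 68 and 40 DRIP reads in exp, against 60 and 61 in control, and a G-rich transcript strand with skews of 0.75 and 0.87 in exp and 0.62 and 0.75 in control. Both controls had a further SNHG29 peak that neither exp library had. Of 38 lung and cancer lncRNAs, 9 had a peak, with 4 and 3 genes in exp, against 6 and 8 in control, and PVT1, TTN-AS1 and FAM83A-AS1 were called in all 4. FAM83A-AS1 held 40 and 30 DRIP reads at its promoter in exp, against 40 and 28 in control. Of 18 lncRNAs of p53 and DNA damage, 3 had a peak (2 and 0 genes in exp, against 1 and 0 in control), and so did 3 of 23 imprinted lncRNAs (1 and 0 in exp, against 2 and 0 in control).

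Read counts could be compared at regions with exactly 1 peak in every library, 1370 in all, of which 144 belonged to lncRNA genes. edgeR's quasi-likelihood test, offset by the log of the peak width in each library, called 0 of the 1370 regions after Benjamini-Hochberg adjustment at 0.05, a share of 0% in either direction. DESeq2 also called 0. At an unadjusted p under 0.05 edgeR counted 10 lncRNA regions, 5 higher and 5 lower in exp, against 3.14% of all regions higher and 3.87% lower, and DESeq2 counted 2 lncRNA regions. This even split moved with the scaling: 11 of 14 lncRNA regions were higher with factors from counts not scaled for width, and 0 of 5 without the width offset. The median log2 fold change of exp over control was -0.01 for lncRNA regions and 0.01 for all regions, and 74 of the 144 were lower in exp, or 46 with the unscaled factors. Scaling puts the median of all regions near 0, so these are changes relative to it, and with factors from counts not scaled for width that median was 0.12. Regions called in every library leave out places where a group lost its peak. On simulated counts for this comparison, with 1370 regions, 109 of 110 regions changed 4-fold and 68 of 90 changed 2-fold were found. Among unchanged regions, 5 were called. The simulation gave all regions the same dispersion and kept the observed peak widths, so the shares found may be too high for the real counts.

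FAM230F (ENSG00000276095), whose promoter is printed above, had the lowest p of the lncRNA regions. Its peak held 26 and 14 DRIP reads in exp, against 90 and 35 in control, over 68 and 39 input reads in exp and 114 and 68 in control. Both exp libraries lay below both controls, and DRIP reads were fewer than input reads in all 4. The log2 fold change was -1.27 (SE 0.33, edgeR's quasi-likelihood test, adjusted p = 0.0832). AC116025.1, within TBC1D16 on chromosome 17, leaned the other way at 0.83 (SE 0.25, edgeR's quasi-likelihood test, adjusted p = 0.186). It held 63 and 57 DRIP reads in exp, against 95 and 63 in control, in peaks of 459 and 425 bp in exp and 1194 and 668 bp in control, so its direction comes with the width offset. AC025839.1, on chromosome 8, held 73 and 84 DRIP reads in exp, against 181 and 124 in control, a log2 fold change of -0.56 (SE 0.22, edgeR's quasi-likelihood test, adjusted p = 0.527). None of these regions passed the test, and they were chosen after their values were seen.

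**Figure D5:**
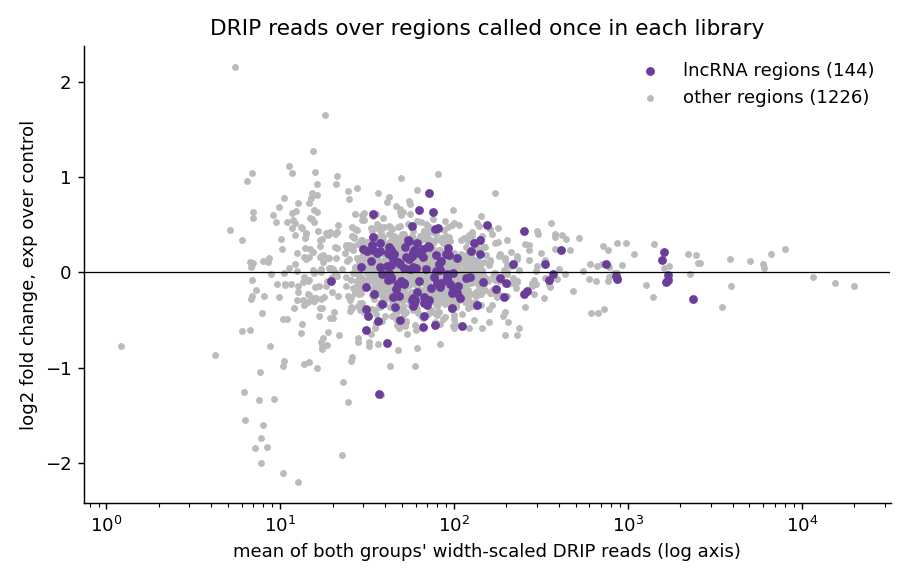
Log2 fold change of exp over control (vertical axis) against the mean width-scaled DRIP reads of both groups (horizontal axis, log scale) of 1370 regions with 1 peak in each library, with the 144 lncRNA regions in colour and the other regions in grey. The lncRNA points scatter around 0 with a median of -0.01, and FAM230F, the lncRNA region with the lowest p, lies at -1.27 without passing the adjusted threshold.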

How the data were processed

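DRIP libraries of PC-9 cells, 2 exp and 2 control, were analysed with 1 input library, and groups came from the sample labels. Per the submitters' processing notes, cutadapt, FastQC, Bowtie2, MACS2 and DiffBind were used with GRCh38 (hg38); their settings, and the bounds of the location classes, are not stated there. Per the labels' protocols an IgG aliquot and a hybrid spike-in were made, which were not analysed here.

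Per the file headers, the authors deposited 1 peak list per DRIP library, not pooled, with read counts of the DRIP and input libraries over each peak, without normalization. The fold enrichment is a ratio over a local background, deposited by the authors, and serves here only to describe peaks or order them inside a list. The deposited p-value and q-value columns were read as −log10 values, since the smallest −log10 p was 3.00, although the file headers mention a further multiplier. The GC skew is a score deposited by the authors, whose sign was turned for genes of the minus strand.

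Peaks were counted per library and compared by exact two-sided permutation tests, shares have 95% Wilson intervals, and overlapping peaks (minimum 1 bp) were joined into regions. Library totals were not used; relative depth was solved from fold enrichment and p under the usual MACS2 formulas, which assumes that DRIP libraries were not scaled to the input. DRIP counts of regions with 1 peak per library were tested with edgeR 4.0.16 (quasi-likelihood, TMM factors from width-scaled counts, log width as offset, Benjamini-Hochberg over all regions), after a test on simulated data, and with DESeq2 1.42.0 as an alternative. The interval counted at a region thus differs between libraries. Scripts ran in Python 3.11.15 (pandas 2.3.3, scipy 1.17.1) and R 4.3.3.

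Sequences are RefSeq windows of GRCh38.p14. The members, gene lists and tests were chosen with earlier results of these data known. Named genes were the 10 most covered, the 4 strongest per class in all 4 libraries by the weakest library's best −log10 q, the 8 strongest control-only and exp-only genes with overlapping peaks, up to 8 members of each of 6 gene lists with a peak in at least 2 libraries, and regions past the edgeR threshold, of which there were 0; others are said to have been chosen after their values were seen. Not every gene that the rule takes is described. Alternatives were stricter q, equal list lengths, other overlaps, chromosomes left out, other scalings, a replicate block and leaving out each library.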

Additional observations from a re-analysis of the deposited data

How the results depend on the processing

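Of 113 alternatives to 11 results, 99 kept the direction of a ratio or difference, a similar gene count, or the edgeR call. The size of ratios and differences was not judged in this count, and it moved as given below. The exp over control ratio of lncRNA peaks stayed between 0.486 and 0.854 (0.497 to 0.670 leaving out 1 library), and that of covered bases between 0.575 and 0.804 (0.535 to 0.702). The highest ratios, 0.854 and 0.804, came at equal list length. The lncRNA excess over coding peaks stayed between 9.21 and 12.8 percentage points in promoters and between 10.1 and 12.7 in terminators. The promoter share difference ranged from -5.74 to -0.93 points, with -0.93 at −log10 q of at least 5, and from -5.80 to -2.58 leaving out 1 library. Control-only genes numbered 30 at −log10 q of at least 5 and 132 at equal list length, and 375 to 1077 without 1 library; exp-only genes numbered 37 at −log10 q of at least 2, 7 at 5 and 96 at equal list length, and 123 to 465 without 1 library, where fewer libraries have to meet the rule. The skew difference between lncRNA and coding promoters turned to 0.00400 without chromosomes 13, 14, 15, 21 and 22, was -0.0117 and -0.0309 at −log10 q of at least 2 and 5, and ranged from -0.00847 to 0.00341 leaving out 1 library; the cause was not tested. Without the 10 most covered genes, an alternative added after seeing the data, the peak ratio was 0.580 and the covered ratio 0.578. With the replicate number as a block, edgeR called 0 regions, with 67 regions and 6 lncRNA regions at an unadjusted p under 0.05, against 96 and 10 without it; deviations of exp 1 and control 1 correlated at -0.07 over the regions, and the numbers were not taken to pair the libraries. Without exp 1, edgeR called 3 regions, 0 of them lncRNA, and with factors from unscaled counts 1 region. Depth limits single peaks, whose median summit held 9 or 10 reads.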
